A study of Rattus norvegicus with 45 samples.

Results

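The genes described here encode the collagens and the glycoproteins and proteoglycans of the extracellular matrix in rat skeletal muscle. They were chosen by gene symbol, as 28 named matrix genes and every gene whose symbol has the form of a collagen chain. Of the named genes 27 had a probe set with that symbol, while no probe set carried the symbol Thbs1 alone. Together with 41 collagen genes this gave 68 genes on 101 probe sets, out of 14217 named genes and 31042 probe sets on the array. In 59 of the 68 genes at least 1 probe set passed the filter on low signal and was tested. The other 9, Col4a4, Col4a6, Col9a1, Col9a3, Col17a1, Col19a1, Col20a1, Col25a1 and Col27a1, never exceeded a signal of 323.0 in any array.

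RNA came from the gastrocnemius, a mixed muscle rich in fast fibres, and the soleus, a slow muscle, of female Sprague Dawley rats, and was hybridised to 45 Affymetrix arrays, 1 per muscle sample. The rats received cerivastatin, a statin that inhibits cholesterol synthesis, or its methylcellulose vehicle for 14 days. For gastrocnemius there were vehicle, 0.1, 0.5 and 1.0 mg/kg/day groups, and for soleus vehicle and 1.0 mg/kg/day alone. Each dose was given to rats without exercise and to rats that ran on a treadmill for 20 min a day at 20 m/min on 5 days a week. There were 4 arrays in each of 9 groups and 3 in each of the other 3, namely both muscles of unexercised rats at 1.0 mg/kg/day and the gastrocnemius of exercised rats at 0.5 mg/kg/day. The study's questions were the effect of the drug, its combination with running, and the sensitivity of fast against slow muscle.

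Fibrillar collagens (types I, II, III, V and XI) are assembled from procollagen chains into the fibrils that carry tension in tendon and in the sheaths around muscle fibres and bundles. The class of fibrillar collagens counted below also holds Col24a1, and Col27a1, which was not tested. Fibril-associated collagens and small leucine-rich proteoglycans sit on those fibrils and set their diameter and spacing. The basement membrane around each muscle fibre is a separate sheet built of type IV collagen, laminins, nidogens and perlecan, and type VI collagen lies between it and the fibrils.

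Signals below are the deposited linear values of an array, given in the order of replicates 1 to 4 (or 1 to 3). Changes are differences of mean log2(signal + 12.4), each with its standard error, and a gene is called higher or lower where limma's Benjamini-Hochberg adjusted p over all tested probe sets was under 0.05. The trimmed mean of every array lay between 600.2 and 600.3. Actin 5' to 3' ratios, which fall when RNA is degraded, lay between 0.116 and 0.707. In gastrocnemius of exercised rats it was 0.437 to 0.578 at 1.0 mg/kg/day and 0.35 to 0.469 in vehicle. Replicate 3 of unexercised gastrocnemius at 0.1 mg/kg/day had the lowest ratio, 0.116, and stood apart in the matrix genes too, with the highest of its group's 4 signals in 53 of the 59 tested genes. Fast fibre markers separated the muscles as labelled, with 6 of 7 lower in soleus than in gastrocnemius of vehicle rats, both with and without exercise. Slow fibre markers were higher in soleus in 6 of 7 cases in exercised rats and in 0 of 7 in unexercised rats (medians 4.41 and 1.20). Their summed signal varied widely within gastrocnemius, from 3281.8 to 375702.7 in exercised vehicle arrays and from 108437.2 to 358382.2 in unexercised ones, where it overlapped the 326648.5 to 499286.3 of soleus.

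In exercised rats, cerivastatin at 1.0 mg/kg/day was accompanied by higher signal of most tested matrix genes in the gastrocnemius. Of the 59 genes 32 were higher and 4 lower than in exercised vehicle rats (n = 4 and 4), that is 54.2% and 6.78% of them, while over all 11684 tested genes 27.7% were higher and 21.9% lower. The median change of the matrix genes was 1.01 on the log2 scale, against 0.07 for all tested genes, and 44 of the 59 changes were above 0. An unadjusted p under 0.05 was found for 37 of the 59 genes, against 56.8% of all genes. In 31 of the genes all 4 treated arrays lay above all 4 vehicle arrays, and in 3 they all lay below, where 26.5% and 21.7% of all genes did so. In bulk muscle, fewer cells of a type and less RNA per cell cannot be told apart, and the same holds for more cells and more RNA.

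The classes differed in how many of their members were called. Collagen processing genes were higher in 5 of 5 cases (median 2.12), elastic fibre genes in 4 of 5 (median 1.36), proteoglycans in 4 of 6 (median 1.32) and basement membrane genes in 6 of 11 with 1 lower (median 0.81). Fibrillar collagens were higher in 4 of 10 cases (median 0.74) with none lower, while 49.6% of all genes were called in either direction. Fibril-associated collagens had 2 of 5 higher and 1 lower, adhesive and matricellular glycoproteins 2 of 5 higher, and type VI and the other collagens 5 of 12 higher and 2 lower (median 0.18). No test compared the classes with each other.

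**Figure D1:**
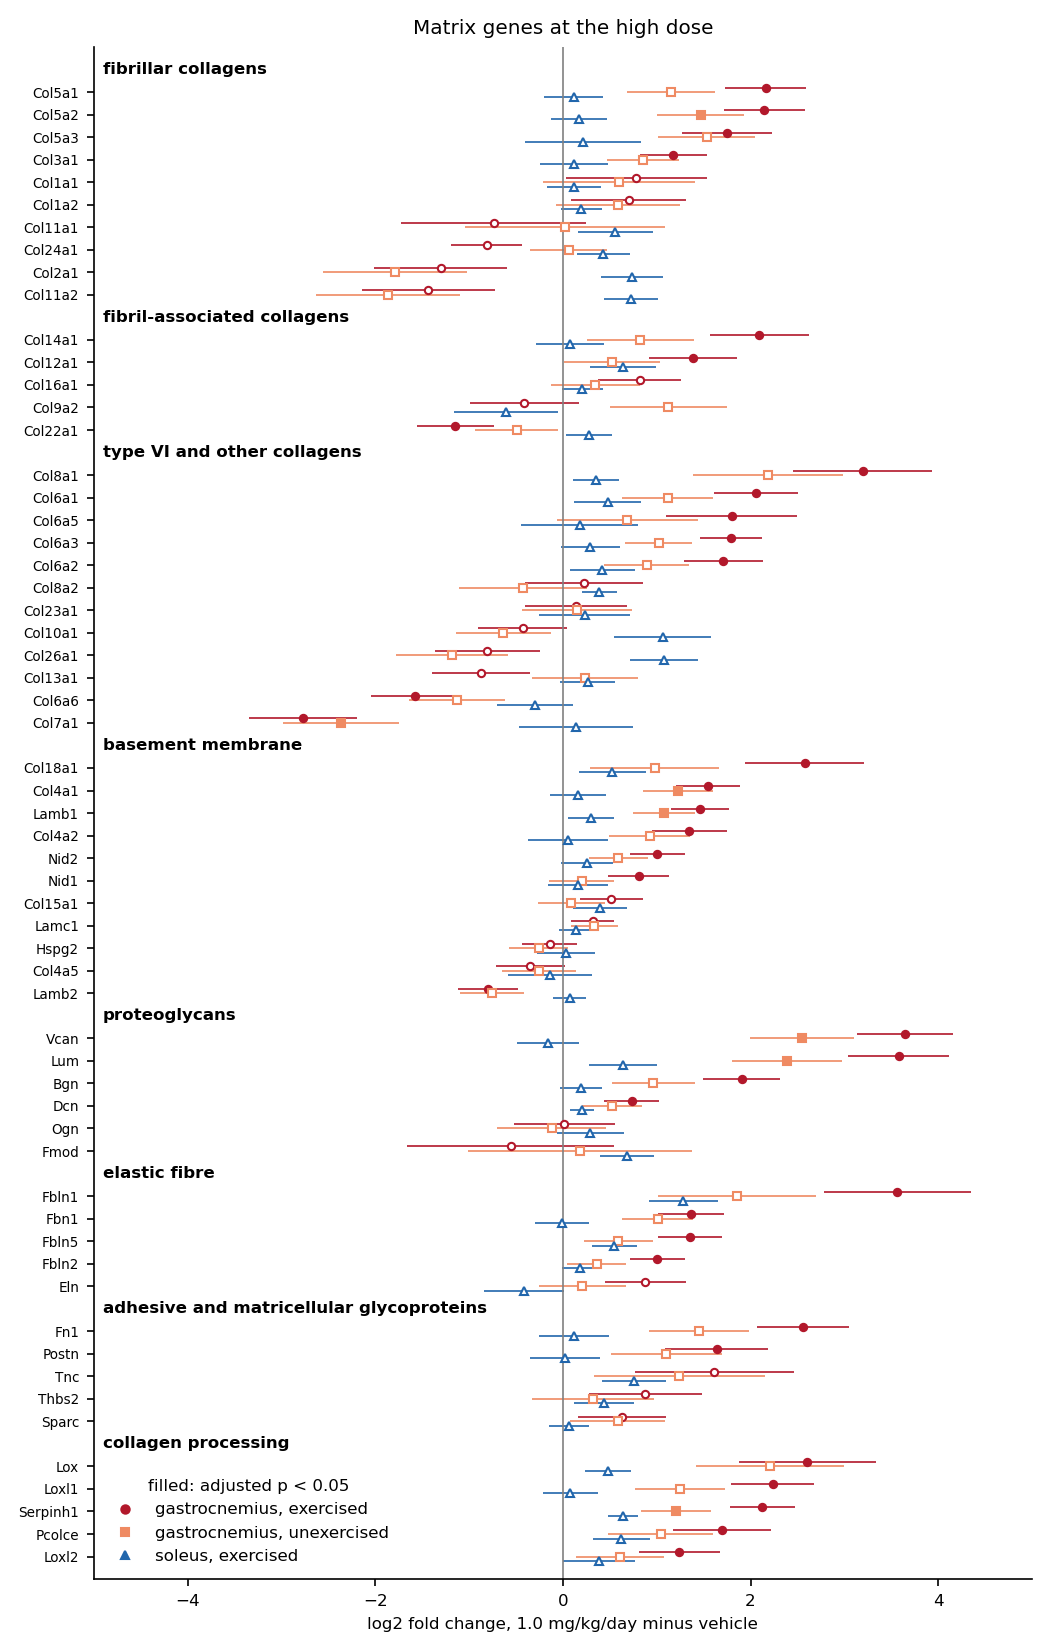
Log2 fold change at 1.0 mg/kg/day against vehicle, with its standard error, for the 59 tested genes grouped by class, in gastrocnemius of exercised rats (red circles), gastrocnemius of unexercised rats (orange squares) and soleus of exercised rats (blue triangles); filled symbols have an adjusted p under 0.05. Filled red circles stand to the right of 0 for 32 genes and to the left for 4, and no triangle is filled.

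Among the fibrillar collagens the 3 chains of type V, the collagen that nucleates fibrils and limits their width, were all higher. Col5a1 gave signals of 1186.2, 1139.5, 1565.6 and 1085.5 in vehicle arrays and 3058.2, 7348.1, 5790.0 and 7317.5 in treated arrays, a change of 2.16 ± 0.43 (adjusted p = 0.0003083). Col5a2 gave 2691.6, 2684.0, 2909.4 and 2950.0 in vehicle and 7458.8, 15111.0, 13060.4 and 16539.8 in treated arrays, a change of 2.15 ± 0.43 (adjusted p = 0.0003029). Every treated array was higher than every vehicle array for both chains, with treated replicate 1 the lowest. Col5a3 rose by 1.75 ± 0.48 (adjusted p = 0.004626). Col3a1, the type III chain of reticular fibrils, rose by 1.18 ± 0.36 (adjusted p = 0.009439), from 12670.6 to 25439.4 in vehicle arrays to 36672.5 to 46941.2 in treated arrays.

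The chains of type I, the main collagen of tendon and scar, were not called. Col1a1 gave 5110.6, 40823.7, 11899.2 and 34462.9 in vehicle arrays and 29403.6, 25614.1, 34004.1 and 29176.5 in treated arrays. The vehicle arrays thus spread on both sides of the treated ones, which lay close together. The change was 0.78 ± 0.75 (adjusted p = 0.4217), with a 95% interval of -0.76 to 2.32 that leaves room for a rise as large as that of type V. Col1a2 changed by 0.70 ± 0.62 (adjusted p = 0.3777) and Col11a1, a cartilage and tendon fibril chain, by -0.74 ± 0.99 (adjusted p = 0.5761).

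Fibril-associated collagens bridge fibrils to their surroundings. Col14a1 was raised, with signals of 1523.3, 960.5, 1663.5 and 984.1 in vehicle arrays and 3360.4, 5085.1, 7936.2 and 6043.7 in treated arrays (2.09 ± 0.53, adjusted p = 0.002358). Col12a1 gave 391.7, 1021.9, 265.4 and 574.7 in vehicle and 1108.7, 1217.6, 1574.3 and 1447.3 in treated arrays (1.39 ± 0.47, adjusted p = 0.01874). The groups did not overlap for either gene, but vehicle replicate 2 of Col12a1 came close to the treated range, and the call was lost without vehicle replicate 1 or 3 (adjusted p = 0.05182 and 0.08116). A second tested probe set of each gene moved the same way without a call, by 0.84 for Col14a1 and 1.05 for Col12a1 (adjusted p = 0.0858 and 0.0837). Col22a1, a collagen of the muscle-tendon junction, fell from 318.3, 490.7, 397.8 and 687.2 to 290.4, 104.8, 347.1 and 143.4, with 1 treated array inside the vehicle range. Its change of -1.15 ± 0.41 (adjusted p = 0.02484) lost its call without vehicle replicate 2 or 4 or without treated replicate 2 or 4 (adjusted p = 0.05051 to 0.1164). Col16a1 (0.82) and Col9a2 (-0.41) were not called.

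The basement membrane genes divided by chain. Col4a1 and Col4a2 encode the 2 chains of the type IV collagen found in nearly all basement membranes and lie head to head on chromosome 16, so that their promoters are shared. In RefSeq's rat build GRCr8 the start sites are 77 bases apart, and the windows from 250 bases before to 50 after each start overlap by 176 bases. The window of Col4a1, at chr16:84885347-84885646 on the plus strand, is printed because both genes of this pair moved together. Capitals mark the letters CCAAT and GGGCGG read on either strand (as ATTGG and CCGCCC on the other), motifs of common promoter factors.
Col4a1: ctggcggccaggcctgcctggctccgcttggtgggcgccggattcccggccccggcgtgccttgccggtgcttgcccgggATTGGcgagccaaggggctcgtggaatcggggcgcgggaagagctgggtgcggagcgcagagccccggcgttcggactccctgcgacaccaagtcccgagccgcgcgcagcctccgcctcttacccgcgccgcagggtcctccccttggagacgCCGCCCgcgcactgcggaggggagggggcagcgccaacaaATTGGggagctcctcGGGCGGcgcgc
It holds 2 copies of CCAAT and 2 of GGGCGG and none of TATAAA. Of all 33469 RefSeq windows of this length 37.5% held CCAAT, 33.1% GGGCGG and 14.2% TATAAA, and of the 53 windows of 49 matrix genes 28.3%, 58.5% and 13.2% did. A match is a description of the letters and not a site of binding.

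Col4a1 gave signals of 2614.8, 3957.6, 3369.6 and 2968.5 in vehicle arrays and 6909.3, 8681.5, 9272.5 and 13603.9 in treated arrays, a change of 1.54 ± 0.34 (adjusted p = 0.0007718). Col4a2 gave 1325.4, 2560.2, 2154.8 and 1590.3 in vehicle arrays and 3969.8, 4621.4, 4240.3 and 6404.6 in treated arrays, a change of 1.35 ± 0.40 (adjusted p = 0.007595). For both chains of the pair replicate 4 was the highest treated array and no arrays overlapped. Col18a1, whose C-terminal fragment is endostatin, gave 364.3, 50, 196.4 and 207.2 in vehicle and 682.1, 1423.5, 816.1 and 1647.0 in treated arrays (2.58 ± 0.64, adjusted p = 0.001918).

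Laminins are trimers, and the beta chains moved in opposite directions. Lamb1 gave 706.4, 669.5, 918.9 and 750.1 in vehicle and 1129.9, 2634.3, 2185.2 and 3010.7 in treated arrays (1.46 ± 0.31, adjusted p = 0.0004722). Lamb2, the beta chain enriched at the neuromuscular junction of adult muscle, gave 2927.1, 3487.3, 3258.9 and 3368.8 in vehicle and 1740.4, 1456.5, 2654.1 and 1807.2 in treated arrays (-0.80 ± 0.32, adjusted p = 0.04506). Neither beta chain had overlapping groups. Lamc1, the gamma chain, changed by 0.32 ± 0.23 in the probe set used (adjusted p = 0.2739) and by 0.72 in another (adjusted p = 0.0409). The nidogens, which link laminin to type IV collagen, were higher by 0.81 ± 0.32 for Nid1 (adjusted p = 0.0437) and by 1.00 ± 0.29 for Nid2 (adjusted p = 0.007165), though a second probe set of Nid1 read -0.17 (adjusted p = 0.502). Perlecan (Hspg2) was at -0.14 ± 0.29 (adjusted p = 0.7243).

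The proteoglycans held the largest changes of the 59 genes. Vcan encodes versican, a large hyaluronan-binding proteoglycan of provisional matrix. Its signals were 280.1, 292.0, 446.6 and 324.6 in vehicle arrays and 4572.6, 7223.5, 2034.1 and 4999.6 in treated arrays, a change of 3.65 ± 0.51 (adjusted p = 1.41e-05). Lum encodes lumican, a keratan sulfate proteoglycan bound to collagen fibrils, and gave 1627.7, 1412.6, 2006.2 and 712.2 in vehicle and 12550.9, 17432.6, 20650.8 and 15405.7 in treated arrays (3.58 ± 0.54, adjusted p = 2.386e-05). The lowest treated array of either gene was more than 4 times the highest vehicle array. Bgn (biglycan) rose from 1006.4, 1525.5, 1633.5 and 1142.7 to 3336.1, 5247.5, 4471.1 and 7437.7 (1.91 ± 0.41, adjusted p = 0.00063). Dcn (decorin) changed by 0.73 ± 0.30 (adjusted p = 0.04735), and the call was lost without 7 of the 8 arrays in turn (adjusted p up to 0.1253). Ogn (osteoglycin) and Fmod (fibromodulin) were not called, at 0.02 ± 0.53 and -0.56 ± 1.11.

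The promoter window of Lum, among the most changed members, and that of Col1a2, which did not pass the test, are printed for comparison with the Col4a1 window above. They lie at chr7:34245456-34245755 and chr4:33518307-33518606 of GRCr8, both on the plus strand, and capitals mark CCAAT (as ATTGG) and TATAAA.
Lum: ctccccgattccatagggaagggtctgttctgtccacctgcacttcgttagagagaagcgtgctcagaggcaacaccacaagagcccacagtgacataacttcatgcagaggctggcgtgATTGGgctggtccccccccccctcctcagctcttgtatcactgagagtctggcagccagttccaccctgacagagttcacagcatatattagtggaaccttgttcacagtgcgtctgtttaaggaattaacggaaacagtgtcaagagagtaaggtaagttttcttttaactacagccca
Col1a2: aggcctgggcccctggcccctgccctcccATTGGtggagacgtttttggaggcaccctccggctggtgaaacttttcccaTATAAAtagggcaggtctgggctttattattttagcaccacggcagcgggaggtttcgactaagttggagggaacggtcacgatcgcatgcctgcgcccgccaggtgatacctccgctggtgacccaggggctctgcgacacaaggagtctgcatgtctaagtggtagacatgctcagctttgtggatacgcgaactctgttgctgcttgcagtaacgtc
The Lum window holds 1 CCAAT and no TATAAA, and the Col1a2 window holds 1 CCAAT and 1 TATAAA. Neither holds GGGCGG.

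Elastic fibres consist of elastin on a scaffold of fibrillin, with fibulins at their surface. Fbln1 was near the lower end of the array's range in vehicle rats, at 28.6, 90.2, 19.2 and 17.2, and reached 341.1, 709.3, 540.0 and 536.5 in treated rats (3.57 ± 0.78, adjusted p = 0.0006858). Fbn1, the fibrillin of microfibrils, gave 3440.2, 2518.7, 2840.8 and 2383.9 in vehicle and 5120.3, 7925.3, 6476.7 and 9895.9 in treated arrays (1.36 ± 0.35, adjusted p = 0.002634). No arrays overlapped between the groups for either gene. Fbln5 and Fbln2 rose by 1.36 ± 0.34 and 1.01 ± 0.29 (adjusted p = 0.002119 and 0.006628), and Eln, elastin itself, was at 0.88 ± 0.43 without a call (adjusted p = 0.1015).

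Among the adhesive and matricellular glycoproteins, Fn1 (fibronectin, which binds integrins and collagen) gave 3043.8, 3139.9, 3585.2 and 2959.7 in vehicle and 20966.5, 15457.2, 21837.2 and 17514.8 in treated arrays, a change of 2.56 ± 0.50 (adjusted p = 0.0002299). Postn (periostin) gave 1217.1, 1134.5, 2128.5 and 1581.0 in vehicle and 2968.2, 4296.5, 6484.0 and 5419.8 in treated arrays (1.64 ± 0.55, adjusted p = 0.01741). Both genes were higher in each treated array than in any vehicle array. Tnc (tenascin C, a protein of tendon and of wounded tissue) had a change as large as that of Postn, 1.62 ± 0.85, but did not pass the test (adjusted p = 0.1249). Its vehicle arrays ran from 110.9 to 1121.8 and its treated arrays from 715.8 to 1674.3, so that the groups overlapped. Sparc and Thbs2 were at 0.63 ± 0.47 and 0.88 ± 0.60, also without a call.

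The enzymes and chaperone that process collagen were all higher. Lox (lysyl oxidase, which crosslinks collagen and elastin) gave 399.5, 2641.4, 489.5 and 1365.3 in vehicle and 6149.7, 5833.9, 4640.4 and 6128.3 in treated arrays (2.60 ± 0.73, adjusted p = 0.005324). Loxl1 gave 786.5, 780.4, 647.0 and 473.6 in vehicle and 2010.6, 3291.2, 3775.1 and 3934.3 in treated arrays (2.24 ± 0.45, adjusted p = 0.0002918). Vehicle arrays of Lox were widely spread and those of Loxl1 were not, while the treated arrays of each lay above them. Serpinh1 (HSP47, the chaperone of procollagen folding) rose by 2.12 ± 0.35 (adjusted p = 4.59e-05), from 2369.4 to 3854.0 in vehicle to 9106.0 to 15868.5 in treated arrays. Pcolce (an enhancer of procollagen cleavage) and Loxl2 rose by 1.70 ± 0.52 and 1.24 ± 0.43 (adjusted p = 0.009945 and 0.02195), and Loxl2 lost its call without vehicle replicate 1 or treated replicate 2 (adjusted p = 0.06089 and 0.05536).

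In the remaining class, the short-chain collagen Col8a1, known from vessel walls, gave 167.2, 289.7, 262.4 and 32.4 in vehicle arrays and 1245.0, 2055.8, 1062.0 and 1667.1 in treated arrays (3.19 ± 0.74, adjusted p = 0.001193). Col7a1, the anchoring fibril collagen, went the other way, from 819.1, 447.8, 1101.1 and 1147.1 to 92.6, 145.2, 147.7 and 73.9 (-2.77 ± 0.58, adjusted p = 0.0004389). The lowest vehicle array of Col7a1 was more than 3 times the highest treated array. The 3 main chains of type VI collagen rose, with Col6a1 at 2.05 ± 0.45, Col6a2 at 1.71 ± 0.42 and Col6a3 at 1.79 ± 0.33 (adjusted p = 0.000669, 0.00196 and 0.0001434). A second probe set of Col6a2 read 0.29 (adjusted p = 0.705). The alternative chain Col6a6 fell, from 151.7, 150.9, 241.7 and 211.9 to 22.6, 42.5, 70.5 and 110.3 (-1.57 ± 0.48, adjusted p = 0.009046). The alternative chain Col6a5 rose by 1.80 ± 0.69 (adjusted p = 0.03774), and lost its call without any 1 vehicle array or treated replicate 4 (adjusted p up to 0.174). Col8a2 and Col23a1 were at 0.23 and 0.14 without a call.

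**Figure D2:**
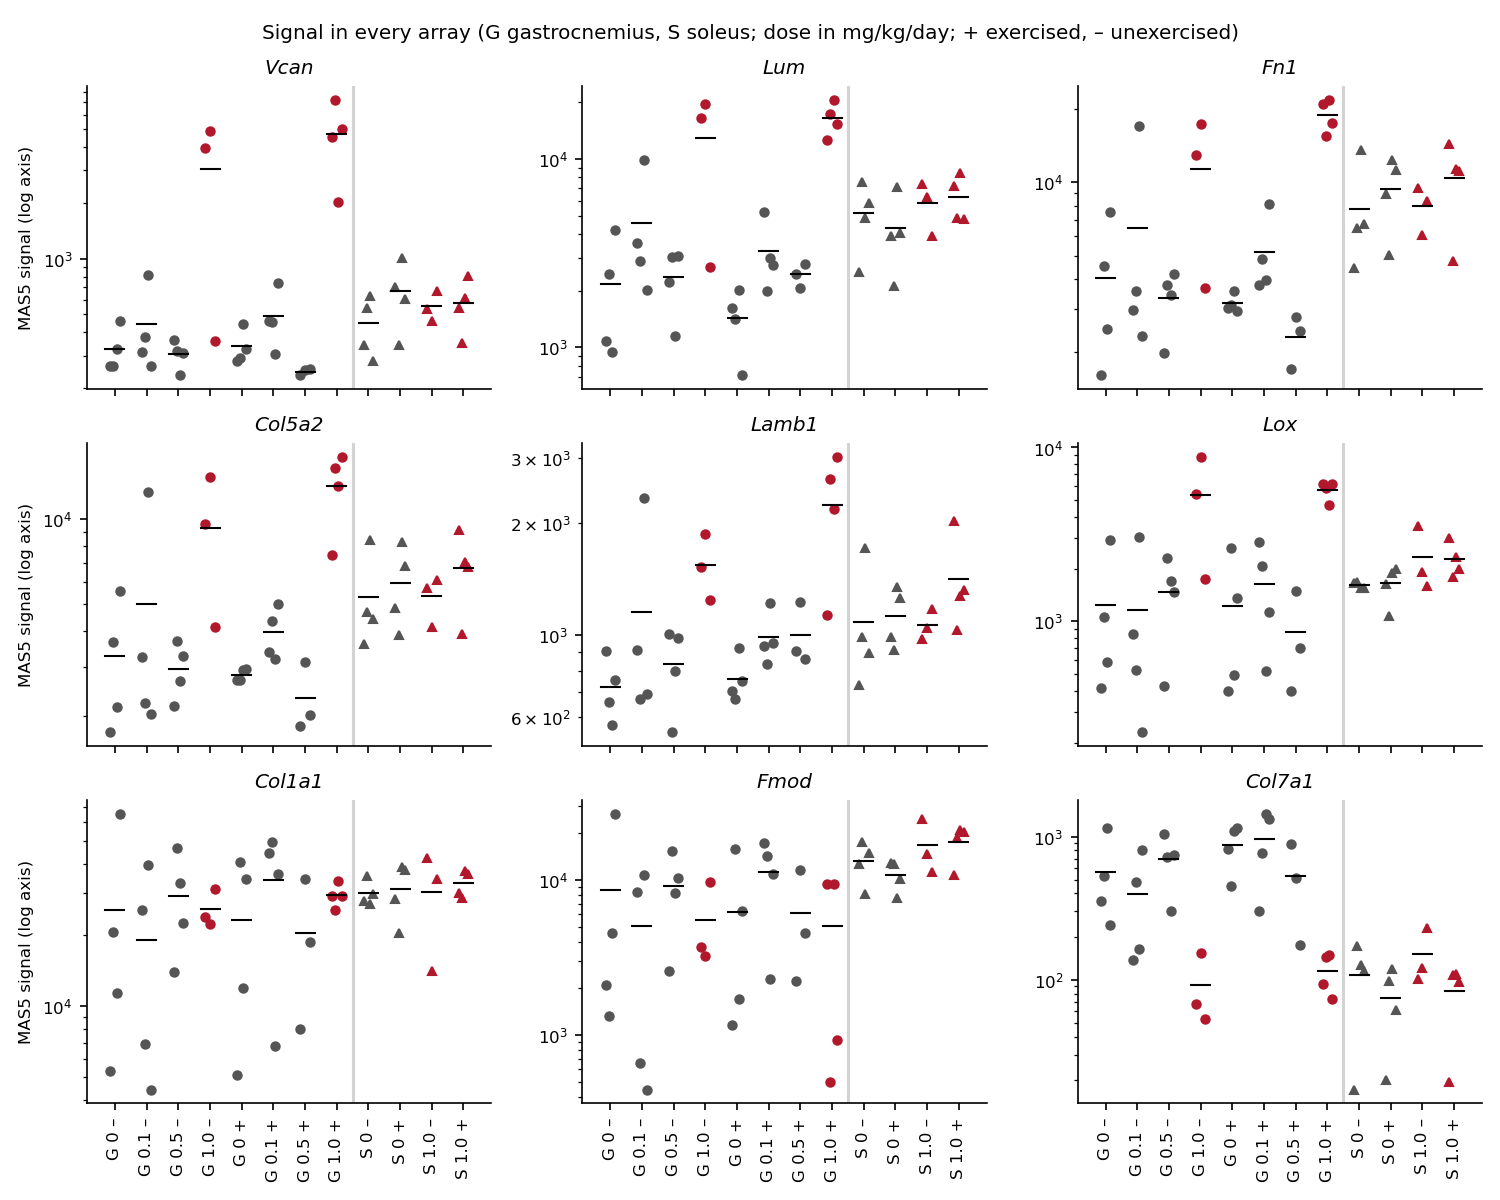
Signal of 9 genes in each of the 45 arrays on a log axis, by group, with a bar at the group mean and the groups at 1.0 mg/kg/day in red. Vcan, Lum and Fn1 are high in the gastrocnemius at 1.0 mg/kg/day except in replicate 3 of the unexercised rats, and overlap between the soleus groups, Col7a1 is low in the treated gastrocnemius and in all soleus groups, and Col1a1 and Fmod scatter widely within the gastrocnemius groups.

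The treated exercised arrays were ordered alike for many of the genes that rose. Of the 32 raised genes, 24 had their lowest treated signal in replicate 1 and 6 in replicate 3, and 13 had their highest in replicate 4. Of the 25 genes with several probe sets, 21 had more than 1 tested, and in 15 of these all tested probe sets had the same call, with none called in opposite directions.

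Markers of some other cell types moved in the same arrays. All 16 tested macrophage and myeloid markers were higher in exercised rats at 1.0 mg/kg/day (median 4.51), and their summed signal was 7405.4 to 9207.4 in vehicle arrays and 91568.2 to 209882.6 in treated arrays. Of 10 tested fibroblast markers, chosen outside the matrix genes, 5 were higher and 1 lower (median 0.97), with Clec3b at 3.20, Thy1 at 2.70, Pdgfra at 2.48 and Gsn at -1.39. Their summed signal of 36266.9 to 54592.2 in treated arrays overlapped the 42315.0 to 55471.6 of vehicle arrays. The mean log2 of the same markers, in which each marker counts alike, did not overlap, at 10.57 to 11.5 in treated and 9.67 to 10.53 in vehicle arrays. Endothelial markers were called in 2 of 8 cases, smooth muscle and pericyte markers in 2 of 7, adipocyte markers in 0 of 5 and Schwann cell markers in 1 of 4. Over all genes 49.6% were called in this comparison (27.7% higher and 21.9% lower). The endothelial, smooth muscle and pericyte, adipocyte and Schwann cell lists hold few markers each, so their counts are no result about them. Fast fibre markers were lower in 6 of 7 cases, with summed signal of 465655.4 to 559541.4 in vehicle and 94002.9 to 207382.8 in treated arrays. The part of these cell types in the changes of the matrix genes was not tested.

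Other genes of the collagen pathway, from lists fixed by name, were called in the same comparison. Of 19 tested genes for collagen modification and secretion, 16 were higher and 1 lower (median 1.35). Fkbp10 (a chaperone of procollagen) rose by 2.88 ± 0.68, P4ha3 (a prolyl 4-hydroxylase subunit) by 2.80 ± 0.65 and Plod2 (a lysyl hydroxylase) by 2.21 ± 0.40 (adjusted p = 0.00133, 0.001169 and 0.0001109). Of 19 tested genes of the TGF-beta pathway, which induces matrix genes in fibroblasts, 7 were higher and 3 lower (median 0.44), and of 20 matrix receptors 8 were higher and 1 lower (median 0.66). Both shares are near the 49.6% of all genes called in this comparison, so the counts are no result about these lists. The ligand Tgfb1 rose by 3.37 ± 0.51 and the induced matrix protein Tgfbi by 2.17 ± 0.45, while the signal transducer Smad3 was at -1.77 ± 0.36 (adjusted p = 2.656e-05, 0.0004419 and 0.0004055). Among the receptors the hyaluronan receptor Cd44 was at 3.25 ± 0.38, the syndecan Sdc1 at 2.82 ± 0.53 and the laminin-binding integrin Itga7 at 1.79 ± 0.44 (adjusted p = 5.054e-06, 0.0001738 and 0.00176). Of 10 other laminin and basement membrane genes only Lama4 was higher (1.72 ± 0.37, adjusted p = 0.0006565) and only Lama2, the alpha chain of the muscle fibre's basement membrane, was lower (-0.72 ± 0.22, adjusted p = 0.008783), with a median of 0.06.

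From vehicle to 0.5 mg/kg/day the scatter of the type I collagens, Tnc and Fmod among gastrocnemius arrays of a group followed Tnmd, which encodes tenomodulin, a membrane protein that marks tendon cells. Tnmd gave 250.5, 2496.1, 511.2 and 1267.0 in exercised vehicle gastrocnemius and 1614.0, 124.8, 2989.7 and 145.0 at 1.0 mg/kg/day. In unexercised rats it gave 448.0, 514.7, 759.1 and 7706.3 in vehicle and 887.4, 412.2 and 2141.3 at 1.0 mg/kg/day. Fmod, the fibril proteoglycan, gave 1157.9, 15700.2, 1705.2 and 6289.3 and then 9381.9, 501.2, 9388.1 and 926.5 in the same exercised groups, high in the arrays where Tnmd was high. Col1a1 and Tnc did not follow Tnmd in this way in the exercised arrays at 1.0 mg/kg/day, where Col1a1 ran from 25614.1 to 34004.1 and Tnc from 715.8 to 1674.3 while Tnmd ran from 124.8 to 2989.7. Tnmd itself did not pass the test for the drug (-0.52 ± 1.03, adjusted p = 0.7147), nor did any of the 6 tested tendon markers.

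**Figure D3:**
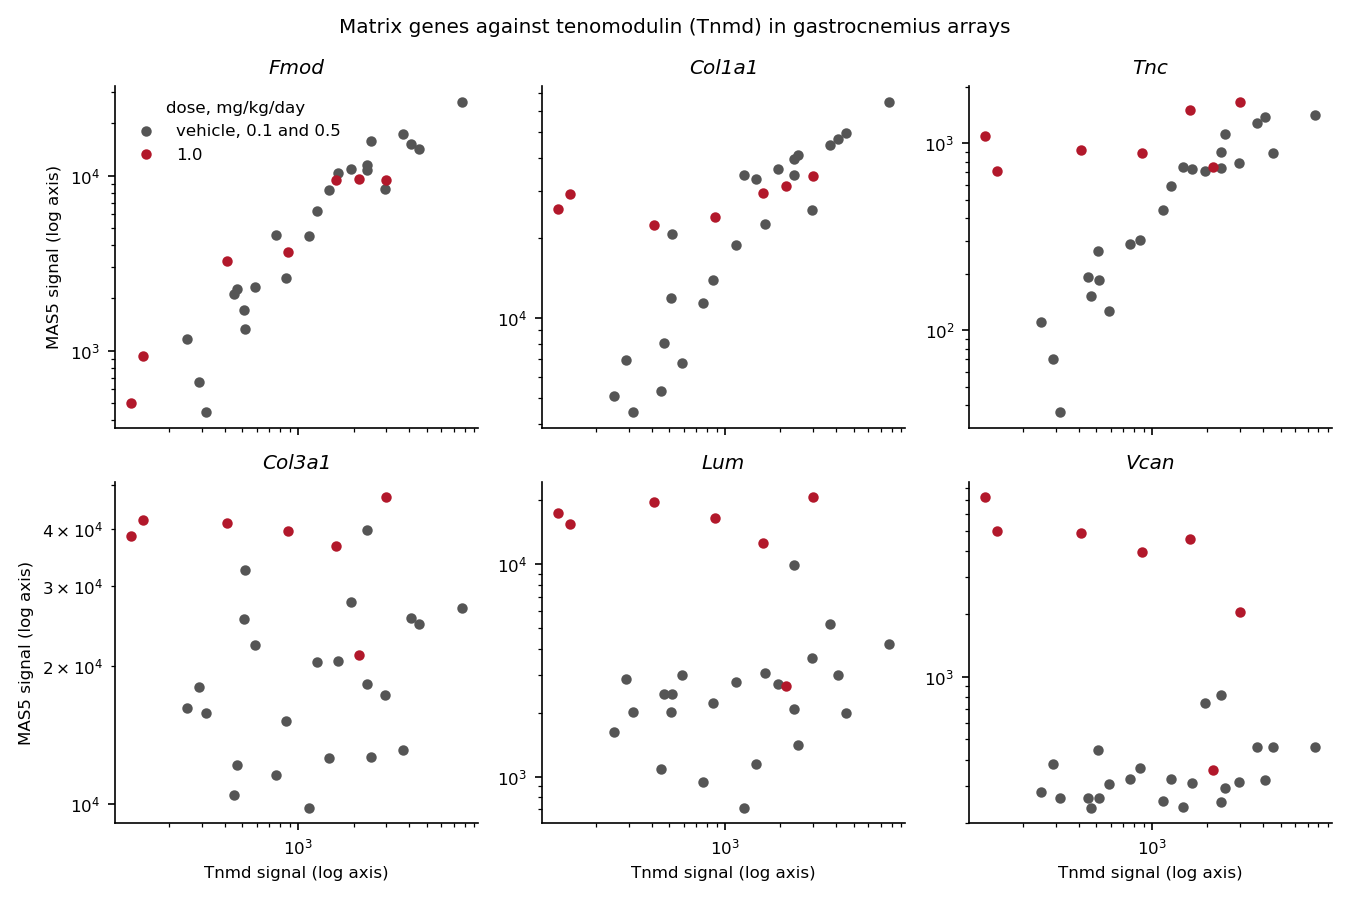
Signal of Fmod, Col1a1, Tnc, Col3a1, Lum and Vcan against the signal of Tnmd in the 30 gastrocnemius arrays, both on log axes, with arrays from vehicle to 0.5 mg/kg/day in grey and those at 1.0 mg/kg/day in red. Fmod climbs along with Tnmd in grey and red arrays alike, whereas for Lum and Vcan most red arrays lie above the grey ones at any Tnmd signal.

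To measure this apart from the high dose, each gene was fitted on log2 Tnmd within groups over the 23 gastrocnemius arrays from vehicle to 0.5 mg/kg/day, a fit chosen after the data had been seen. Replicate 3 of unexercised gastrocnemius at 0.1 mg/kg/day, the array of lowest actin ratio, is among the 23. The slope was not fitted without it. The slope was above 0 with an adjusted p under 0.05 in 24 of the 59 matrix genes, or 40.7%, against 1.38% of all genes, and in none was it called below 0, against 0.154% of all genes. By class the slope was called in 5 of 10 fibrillar collagens, 3 of 5 fibril-associated collagens, 4 of 6 proteoglycans, 4 of 5 processing genes, 3 of 5 adhesive glycoproteins, 4 of 12 type VI and other collagens and 1 of 5 elastic fibre genes. It was called in 0 of 11 basement membrane genes, whose median slope was 0.15. The largest slopes were 1.10 ± 0.07 for Fmod, 0.98 ± 0.06 for Col11a1, 0.95 ± 0.07 for Tnc and 0.82 ± 0.07 for Col1a1 (log2 units per log2 unit of Tnmd, adjusted p = 8.03e-07 for Col1a1), which are genes not called for the drug. Vcan and Lum had slopes of 0.12 ± 0.06 and 0.20 ± 0.10 that did not pass the test (adjusted p = 0.2978 and 0.3082). Lox had both, a slope of 0.72 ± 0.09 (adjusted p = 6.936e-05) and the drug change given above.

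Of the 24 genes with a called slope, 10 were higher, 1 lower and 13 not called at 1.0 mg/kg/day in exercised rats. Of the other 35 genes, 22 were higher, 3 lower and 10 not called. With log2 Tnmd as a covariate 41 of the 59 genes were called in place of 36, and with the mean level of the tendon markers 42. Both covariates assume 1 slope at all doses, which the high-dose values of Col1a1 and Tnc given above do not show. Sparc, Eln and Col16a1, with changes of 0.81, 0.98 and 0.95, were called with the Tnmd covariate (adjusted p = 0.04439, 0.041 and 0.03317). Eln and Col16a1 were also called with array weights (adjusted p = 0.002035 and 0.01109) and with only the groups compared (adjusted p = 0.04206 and 0.03239). With the tendon marker level Fmod and Col11a1 were called lower, at -0.59 and -0.76 (adjusted p = 0.04389 and 0.03778), while with Tnmd they were not.

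**Figure D4:**
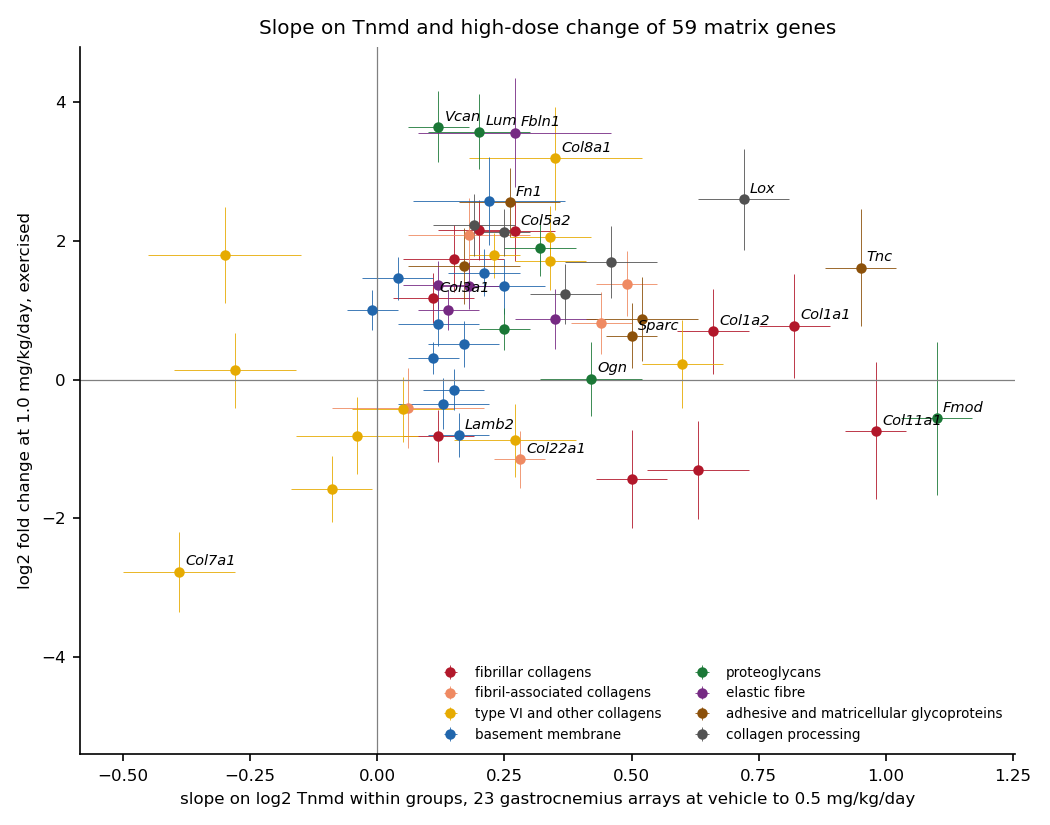
Log2 fold change at 1.0 mg/kg/day in exercised gastrocnemius against the slope on log2 Tnmd over the 23 arrays at lower doses, for the 59 genes coloured by class, with standard errors in both directions. Fmod, Col11a1, Tnc and Col1a1 lie to the right with wide vertical error bars, and Vcan, Lum and the basement membrane genes in blue lie at slopes below 0.3.

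In unexercised rats the gastrocnemius at 1.0 mg/kg/day (n = 3) had 6 matrix genes higher and 1 lower than in unexercised vehicle rats (n = 4), where 7.32% of all genes were higher and 3.96% lower, shares near those of the matrix genes. The 6 were the proteoglycans Vcan (2.54 ± 0.56, adjusted p = 0.01205) and Lum (2.39 ± 0.58, adjusted p = 0.01756), the fibrillar chain Col5a2 (1.47 ± 0.46), the basement membrane genes Col4a1 (1.23 ± 0.37) and Lamb1 (1.08 ± 0.33) and the chaperone Serpinh1 (1.20 ± 0.37), the last 4 with adjusted p of 0.03827 to 0.04581. The gene that fell was Col7a1, at -2.36 ± 0.62 (adjusted p = 0.02382). The median change over the 59 genes was 0.59, against 0.07 for all genes, and 24 had an unadjusted p under 0.05, where 31.6% of all genes did. All treated arrays lay above all vehicle arrays in 9 genes and below them in 2, against 8.73% and 7.47% of all genes. Of the 32 genes raised in exercised rats, all 32 changes were above 0 here, with a median of 1.03, and the 4 that had fallen were below 0, with a median of -0.94. Over all genes, which were not chosen by their change as the 32 were, 6329 of 11684 changes were above 0. The signs of all genes raised in exercised rats are not given here, so the agreement is not shown to be particular to matrix genes. At 0.1 mg/kg/day, where no gene was called, 32 of the 32 were above 0 in exercised rats (median 0.49) and 29 in unexercised rats (median 0.31). At 0.5 mg/kg/day 12 and 17 were. Over all genes 6482 and 6248 of 11684 changes were above 0 at 0.1 mg/kg/day, and 5567 and 5751 at 0.5 mg/kg/day. Positive signs of the 32 thus also occurred at 0.1 mg/kg/day, but with limits. In the unexercised group at that dose replicate 3, the array of lowest actin ratio, was the highest in all 32. The 32 were chosen against the exercised vehicle arrays, which the exercised rats at the lower doses share as controls. The unexercised rats have vehicle controls of their own.

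The 3 treated arrays were not alike. Vcan gave 263.3, 262.3, 323.6 and 459.6 in unexercised vehicle arrays and 3973.0, 4868.5 and 358.2 in treated arrays. Lum gave 1086.6, 2449.7, 943.3 and 4196.4 in vehicle and 16427.3, 19633.5 and 2656.2 in treated arrays, and Fn1 gave 1611.3, 4542.5, 2498.6 and 7555.9 in vehicle and 12977.5, 17361.0 and 3693.0 in treated arrays. Treated replicate 3 thus lay within the vehicle range of all 3 genes, while replicates 1 and 2 were above it. Of the 32 genes raised in exercised rats, replicate 3 was the lowest treated array in 30 and lay above every unexercised vehicle array in 9, against 28 and 26 for replicates 1 and 2. The summed signal of the macrophage markers spanned 13583.2 to 119211.9 in these 3 arrays and 5690.2 to 19225.5 in the vehicle arrays, with 15 of 16 markers called higher. The fast fibre sum was 119950.8 to 401669.5 against 451616.7 to 479843.3 in vehicle, with 3 of 7 called lower. The Schwann cell sum was 7906.7 to 42898.8 against 3544.1 to 7696.3, with 0 of 4 called by limma. The mean log2 of these Schwann cell markers overlapped, at 9.28 to 12.73 in treated and 8.82 to 9.79 in vehicle arrays. The part of these cell types in the spread was not tested.

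The count of called genes moved with single arrays and settings. It was 0 with only the groups compared in the fit and 35 with array weights. It was 21 without treated replicate 3, 0 without treated replicate 1 or 2, and 3, 2, 1 and 10 without vehicle replicates 1, 2, 3 and 4. It was 19 without the 3 arrays of lowest actin ratio, of which none is in these groups and which enter through the shared estimate of spread, 11 with the Tnmd covariate, and 4 with the replicate number as a block.

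The change at 1.0 mg/kg/day was not shown to differ with exercise. The interaction of exercise and dose was called for 0 of the 59 genes by limma, as for 0 of all 11684, and none of the 59 had an unadjusted p under 0.05, where 6.68% of all genes did. The median interaction was 0.43 (exercised minus unexercised), against 0.03 for all genes. The smallest p among the matrix genes belonged to Serpinh1, at 0.92 ± 0.51 (adjusted p = 0.7051). Serpinh1 gave 13110.2, 10089.2 and 4394.7 in the unexercised treated arrays.

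At 0.1 and 0.5 mg/kg/day no matrix gene was called in gastrocnemius by limma, with or without exercise, and neither was any of the 11684 genes (0.0%). At 0.5 mg/kg/day 0 of the 59 had an unadjusted p under 0.05 in exercised or in unexercised rats, where 2.37% and 2.22% of all genes did, and the median changes were -0.10 and 0.07. At 0.1 mg/kg/day in exercised rats Fbln1 (1.84 ± 0.78) and Lum (1.17 ± 0.54) had an unadjusted p under 0.05, 2 of 59 against 2.72% of all genes, with a median of 0.39. These comparisons share the exercised vehicle arrays with the high dose. In unexercised rats at 0.1 mg/kg/day Col6a5 alone did (1.52 ± 0.69), against 3.79% of all genes, with a median of 0.21.

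Replicate 3 of that last group, the array with the lowest actin ratio, had matrix signals above those of the rest of its group. Its Col5a2 was 12392.3, against 3246.3, 2223.3 and 2044.8 in the other arrays of the group, and its Fn1 was 17067.9, against 2997.6, 3572.0 and 2342.2. Its Vcan was 814.3, against 3973.0, 4868.5 and 358.2 in unexercised rats at 1.0 mg/kg/day. Of the 32 genes raised by the high dose in exercised rats it was the highest of its group in all 32, and it exceeded every unexercised vehicle array in 30, against 7, 2 and 3 for replicates 1, 2 and 4. Without it the count of called genes at 0.1 mg/kg/day in unexercised rats was still 0. Marker lists of many cell types were also highest in this array. Their summed signal there and the range of the other 3 arrays was 126409.6 against 4384.1 to 9100.1 for adipocytes, 84557.5 against 2673.3 to 12317.1 for Schwann cells and 39922.8 against 8601.8 to 9585.7 for macrophages. It was 37280.8 against 5360.9 to 8690.6 for endothelium, 36091.1 against 3813.4 to 9474.3 for smooth muscle and pericytes, and 134662.6 against 46672.9 to 58541.4 for fibroblasts. The fast fibre sum was the lowest of the group, 171667.0 against 351433.9 to 501775.8. The part of these cell types in the array's matrix signals was not tested.

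Running alone was not followed by a called change in vehicle rats. Exercised against unexercised vehicle gastrocnemius gave 0 of 59 genes by limma, as for 0 of all 11684 genes. It gave 0 at an unadjusted p under 0.05, where 2.46% of all genes had one, and a median change of 0.00. In soleus it likewise gave 0 called, as over all 11684 genes. There 1 gene had an unadjusted p under 0.05 (Col8a2, -0.50 ± 0.19, against 2.5% of all genes), and the median was 0.03.

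In the soleus no matrix gene was called at 1.0 mg/kg/day, nor was any of the 11684 genes (0.0%). In exercised rats (n = 4 and 4) 53 of the 59 changes were above 0, with a median of 0.23. Over all genes 6153 of 11684 were above 0, with a median of 0.02. Of the 59 genes 8 had an unadjusted p under 0.05, where 5.24% of all genes did. The collagen chaperone Serpinh1 had the change best resolved among the 8, 0.64 ± 0.16 (adjusted p = 0.747), and Fbln1 changed by 1.28 ± 0.37 (adjusted p = 0.7913). The others were Col2a1, Col11a2, Col26a1, Fbln5, Fmod and Tnc. Of the 32 genes raised in exercised gastrocnemius 30 were above 0 in exercised soleus, with a median of 0.21. In unexercised soleus (n = 4 and 3) 1 gene had an unadjusted p under 0.05, Col10a1 (1.31 ± 0.56), against 2.36% of all genes. The median was 0.04, against 0.01 for all genes.

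Vcan gave 705.5, 343.8, 1011.8 and 606.8 in exercised vehicle soleus and 542.4, 352.5, 613.4 and 808.4 at 1.0 mg/kg/day. Lum gave 3881.3, 2121.6, 7092.6 and 4054.3 in vehicle and 7159.7, 4859.7, 8415.0 and 4834.9 at 1.0 mg/kg/day. Both proteoglycans overlapped between the soleus groups, unlike in gastrocnemius of exercised rats. The macrophage markers were called in 0 cases in exercised soleus, with a median of 0.87.

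The difference between the muscles was tested as the interaction of muscle and treatment at 1.0 mg/kg/day. All arrays were taken as independent, as the titles do not say which came from the same rat. In exercised rats it was called for 17 of the 59 genes, 28.8% of them against 29.3% of all genes. The signed change was lower in soleus than in gastrocnemius for 14 and higher for 3, where 16.8% and 12.5% of all genes were called in these directions. Vcan differed by -3.81 ± 0.67 (adjusted p = 0.000297, soleus minus gastrocnemius), Lum by -2.94 ± 0.71 (adjusted p = 0.003206) and Col8a1 by -2.84 ± 0.90 (adjusted p = 0.01908). The signed value was higher in soleus for Col7a1, by 2.91 ± 0.86 (adjusted p = 0.01231), where gastrocnemius changed by -2.77 and soleus by 0.14. It was higher for Col22a1, with -1.15 in gastrocnemius and 0.28 in soleus, and for Col26a1, with -0.81 and 1.08. The count was 10 or 11 without gastrocnemius vehicle replicate 4, gastrocnemius treated replicate 4, soleus vehicle replicate 3 or 4, or soleus treated replicate 2, and 29 without the 3 arrays of lowest actin ratio, of which soleus at 1.0 mg/kg/day exercised replicate 1 is one. In unexercised rats it was 0 of 59 by limma, against 0.0171% of all genes, with 13 at an unadjusted p under 0.05 against 21.0% of all genes, and it became 10 without gastrocnemius treated replicate 3.

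Before any drug the muscles differed in a few matrix genes, among which the fibrillar collagens had no call in the probe set that stands for each gene. In unexercised vehicle rats 4 genes were higher and 1 lower in soleus than in gastrocnemius, where 3.83% and 4.54% of all genes were, or 8.38% in either direction, so that 5 of 59 is near the share of all genes. Postn, the matricellular protein periostin, gave 3268.2, 6028.8, 7759.5 and 8005.7 in soleus and 869.5, 2036.9, 822.1 and 1759.5 in gastrocnemius (2.21 ± 0.51, adjusted p = 0.007474). Col22a1, of the muscle-tendon junction, gave 1026.2, 1656.8, 1236.4 and 2197.2 in soleus and 365.6, 229.7, 382.0 and 852.1 in gastrocnemius (1.81 ± 0.37, adjusted p = 0.002535). Neither gene overlapped between the muscles. Col10a1 was higher by 1.61 ± 0.50 and the transmembrane collagen Col13a1 by 1.49 ± 0.45 (adjusted p = 0.04312 and 0.03787). Col7a1 gave 17.1, 172.3, 126.4 and 114.3 in soleus and 355.0, 527.5, 1142.3 and 241.1 in gastrocnemius (-2.31 ± 0.61, adjusted p = 0.01698). The count of 5 became 12 without gastrocnemius replicate 4, the array of highest Tnmd, 2 without gastrocnemius replicate 3 or soleus replicate 1, 3 without gastrocnemius replicate 1 or 2 or soleus replicate 2 or 4, and 10 without the 3 arrays of lowest actin ratio.

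In exercised vehicle rats 9 genes were higher and 1 lower in soleus, where 7.56% and 7.58% of all genes were. Postn (2.14, adjusted p = 0.004583), Col22a1 (1.55, adjusted p = 0.004298) and Col10a1 (1.59, adjusted p = 0.0305) were among them again. The others were Col18a1, Col8a2, Lum, Fn1, Bgn and Fbln2, with changes of 1.03 to 1.79. A second probe set of the fibrillar chain Col11a1 was higher too (2.40 ± 0.83, adjusted p = 0.04753), while the one used for the gene was at 1.66 (adjusted p = 0.2062). Col7a1 was lower by -3.45 ± 0.61 (adjusted p = 0.0002252), with 19.9, 97.7, 118.5 and 61.8 in soleus against 447.8 or more in gastrocnemius. The count of 10 became 4 to 6 without gastrocnemius replicate 1, 3 or 4 or soleus replicate 3 or 4, and 21 without the 3 arrays of lowest actin ratio. Tnmd ran from 2996 to 8344 in soleus arrays and from 125 to 7706 in gastrocnemius arrays, and with its level as a covariate 2 genes were called in unexercised and 5 in exercised rats. Adipocyte markers were called higher in soleus in 3 of 5 cases in exercised rats (median 3.36) and in 0 of 5 in unexercised rats, where all 5 values were above 0 (median 2.44), and their part in these differences was not tested. About 4 µg of gastrocnemius RNA and 3 µg of soleus RNA entered the labelling, so muscle and input cannot be told apart.

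**Figure D5:**
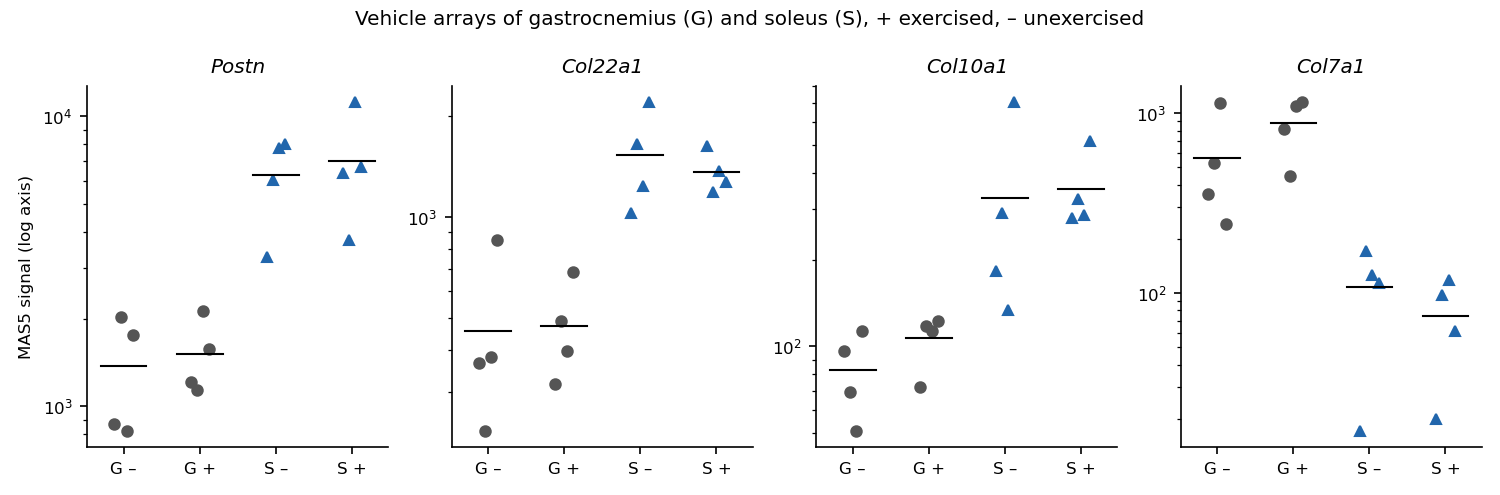
Signal of Postn, Col22a1, Col10a1 and Col7a1 in the vehicle arrays of gastrocnemius and soleus, unexercised and exercised, on a log axis with a bar at the group mean. Postn, Col22a1 and Col10a1 are higher and Col7a1 lower in soleus in both exercise states.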

How the data were processed

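The authors deposited 1 linear intensity for each probe set on each array. The submitters' processing notes name MAS5 as their tool, with its version and scaling not given in the sources used here. All value columns matched a sample, and 57 control probe sets were dropped. Platform symbols were single for 20826 probe sets, several for 436 and absent for 9780. No 2 arrays correlated above 0.966.

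Values were analysed as log2(value + 12.4), the offset being the 10th percentile of all values, which understates the change of low genes. Probe sets with a mean of at least 6.03 (the 30th percentile) were tested, 21729 in all. Each gene stood for its tested probe set of highest mean. A means model was fitted in limma (3.58.1, under R 4.3.3; lmFit, contrasts.fit, eBayes with trend) over the 30 gastrocnemius arrays, the 15 soleus arrays, or all 45 for comparisons of muscles, and p-values were Benjamini-Hochberg adjusted within each of 15 comparisons. An adjusted p is limma's, and ± is the standard error. The fit was checked on simulated data.

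Members and lists were chosen with earlier results of these data known. Named per class were up to 4 called genes of largest and 2 of smallest change in exercised high-dose gastrocnemius, and up to 4 called in other comparisons. Those outside this rule (Col1a1, Tnc, Lamb2, Nid1, Nid2, Col6a2, Col6a3, Col6a6, Col13a1 and genes listed by an unadjusted p) were named after their values were seen. Alternatives were the offset, filter, normalization, probe set rule, array weights, groups in the fit, a replicate block, single arrays left out, and, added after seeing the data, tendon covariates and the Tnmd slope. The labels call replicates biological. Their numbers were not taken as pairs. The sample titles do not say which gastrocnemius and soleus arrays came from the same rat. Tests between muscles therefore treat all arrays as independent. Soleus samples with no word of exercise were taken as unexercised. The number of arrays limits the precision. Promoter windows are RefSeq's (GRCr8), matched by symbol for 49 of 68 genes.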

Additional observations from a re-analysis of the deposited data

Results flagged for a closer look

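For 7 of 144 groups of 4 arrays, over 16 of the matrix genes, 1 array lay apart from the other 3, where chance sets about 1 in 20 groups apart. In unexercised gastrocnemius at 0.1 mg/kg/day replicate 3 was high for Postn (10941.1, the others 1006.3 to 1403.4) and Fbn1 (7930.8, the others 2348.5 to 2888.3). In exercised soleus at 1.0 mg/kg/day replicate 2 was low for Postn (3268.4, the others 7708.2 to 8785.3) and Fbn1 (2304.5, the others 3721.0 to 4020.5), and replicate 1 was low for Col7a1 (19.4, the others 95.6 to 109.5). Col8a1 was high in replicate 4 of unexercised gastrocnemius at 0.5 mg/kg/day (434.5, the others 166.7 to 172.0) and low in replicate 3 of exercised gastrocnemius at 0.1 mg/kg/day (23.9, the others 260.9 to 342.5).

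The change at 1.0 mg/kg/day in exercised rats differed between soleus and gastrocnemius in 17 of the 59 genes by limma's interaction test, 28.8% against 29.3% of all genes, so the count itself does not set the matrix genes apart. Beside Vcan (-3.81), Lum (-2.94), Col8a1 (-2.84) and Col7a1 (2.91), the differences, soleus minus gastrocnemius, were -2.44 for Fn1, -2.16 for Loxl1, -2.05 for Col5a1, -2.02 for Col14a1, -1.98 for Col5a2 and -1.72 for Bgn. They were -1.50 for Col6a3, -1.49 for Serpinh1, -1.38 for Col4a1, -1.38 for Fbn1 and -1.16 for Lamb1, and 1.43 for Col22a1 and 1.88 for Col26a1.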

How the results depend on the processing

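The count of called matrix genes in exercised gastrocnemius at 1.0 mg/kg/day, 36, stayed within 1.5 times under every alternative run and was 30 to 35 with single arrays left out. The 7 called in unexercised rats became 4 with quantile normalization, no filter on low probe sets or the replicate number as a block, 0 with only the groups compared, 35 with array weights, 19 without the 3 arrays of lowest actin ratio, 11 with the Tnmd covariate, and 0 to 21 with single arrays left out. The interaction of exercise and dose went from 0 to 1 with array weights. Soleus against gastrocnemius in unexercised vehicle rats went from 5 to 3 with no filter, 8 with only the groups compared, 13 with array weights, 10 without the 3 arrays, 2 with the Tnmd covariate, and 2 to 12 with single arrays left out. In exercised vehicle rats it went from 10 to 25, 28, 21, 5 and 4 to 12 under only the groups compared, array weights, the 3 arrays left out, the Tnmd covariate and single arrays left out. The interaction of muscle and dose went from 17 to 26, 38, 29 and 10 to 23 under the first 3 of these and single arrays left out, and in unexercised rats from 0 to 24 with array weights, 1 without the 3 arrays and 0 to 10 with single arrays left out. The cause of these moves was not tested. Other comparisons stayed at 0. Arrays with the same replicate number were not alike on average (mean correlation of their deviations 0.006 in gastrocnemius, 0.011 in soleus and 0.006 over both muscles). Single pairs over both muscles ran from -0.417 to 0.67. Pairs of unlike dose and exercise enter these means, so they do not show whether both muscles of a rat share a number. The block moved no other count past 1.5 times. Of the named genes none reversed. Over alternatives other than single arrays left out, 552 values kept their call, 14 gained one and 3 lost one (Col6a5 with an offset of 1, Dcn with median centring or no filter). Low signal limits Fbln1, Col7a1 and Col13a1, where arrays lie near the offset.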
